A study of Rattus norvegicus with 6 samples.

Results

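Hearts of rats whose aortic narrowing had been released (TAC-R) were compared with hearts still under it (TAC). TAC, transverse aortic constriction, is a silk tie around the aortic arch that makes the left ventricle pump against a higher pressure. The comparison rests on 4 of the 6 arrays of the study, 2 labelled TAC and 2 labelled TAC-R, chosen by those labels alone. The other 2 arrays came from hearts labelled normal and are given only for orientation and for the estimate of the spread. All animals were male Sprague-Dawley rats, 10 weeks old, with no transgene or drug named beyond the anaesthetic. The protocol describes control rats operated on without the tie, but no label says that the normal hearts are those. How long the tie was in place and how long after its removal the hearts were taken is not given in the sources used. No label says whether a group's arrays are separate animals. The p-values then reflect only how far these arrays spread, and that spread may be technical.

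A heart under pressure load is known to switch on a set of genes in its muscle cells, with natriuretic peptides that are secreted and slow or fetal forms of contractile proteins at their head. Fibroblasts in such a heart lay down collagen and other matrix, and the muscle shifts its use of fuels. Release of the load is used to ask which of these changes recede. Of the best known load genes, Nppb, Myh7 and Acta1 were higher on the arrays labelled TAC-R than on those labelled TAC. In all 3 the normal arrays, too, lay above the TAC arrays: they read 16.05 and 15.72 for Nppb against 13.57 and 13.88 and 19.17 and 19.09 for Acta1 against 17.98 and 18.29. These genes are known to rise under load. Among other load-responsive genes given below, the normal arrays lay above the TAC arrays in Nppa, Ankrd1, Rcan1 and Csrp3 and below them in Corin. In the matrix genes Col3a1 and Fn1 the normal arrays lay below the TAC arrays. For Col3a1 the normal arrays read 13.26 and 13.37 against 14.46 and 14.22 on the TAC arrays. For Fn1 they read 9.38 and 9.56 against 10.39 and 10.40. Whether the labels are right was not tested. All directions below are between arrays as labelled.

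Promoters are shown for a pair of these genes, Nppb and Acta1, because they have been widely used to study how load switches on heart muscle genes. They were chosen with their motif matches known. The window of Myh7 held no match to the motifs searched, and that of Rcan1, another load gene, held TATA matches only. The RefSeq start used for Myh7 may lie inside the gene, which was not checked. Its window may therefore not be its promoter. The sequences are the 250 bases before the RefSeq transcription start in the GRCr8 build, written 5′ to 3′ along the gene's own strand. Capitals mark matches on either strand to 4 motifs. The MCAT motif, bound by TEAD factors, was searched as CATTCC. The GATA motif, bound by the heart factor Gata4 and its relatives, was searched as AGATAA. The TATA box, found close to many transcription starts, was searched as TATAAA. The CArG box is the site of serum response factor. No match overlapped another in the windows shown.
Nppb, chr5:163699758-163700007, plus strand: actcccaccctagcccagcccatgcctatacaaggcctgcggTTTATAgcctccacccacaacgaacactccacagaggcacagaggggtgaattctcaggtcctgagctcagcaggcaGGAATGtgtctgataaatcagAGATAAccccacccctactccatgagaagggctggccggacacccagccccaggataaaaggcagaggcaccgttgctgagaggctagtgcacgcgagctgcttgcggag
Acta1, chr19:68784195-68784444, minus strand: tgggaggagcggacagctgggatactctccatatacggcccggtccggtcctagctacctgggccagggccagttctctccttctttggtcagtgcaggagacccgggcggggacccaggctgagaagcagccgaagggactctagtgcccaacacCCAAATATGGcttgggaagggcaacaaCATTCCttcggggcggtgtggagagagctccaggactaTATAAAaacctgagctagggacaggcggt
The Nppb window held an MCAT match starting 131 bases before the start and a GATA match 110 bases before it, with a TATA match far upstream at 208 bases. The Acta1 window held a CArG box 94 bases, an MCAT match 67 bases and a TATA match 29 bases before the start. Of 33469 RefSeq windows of this length, 12.1% held MCAT, 10.3% the GATA motif, 12.9% the TATA box and 1.5% a CArG box. Among called genes with a measured brighter group (defined next), MCAT was found in 5 of 23 windows of genes that rose and 2 of 20 of genes that fell. The counts were 1 and 1 for GATA, 4 and 5 for the TATA box, and 1 and 1 for the CArG box. These matches are descriptions of the letters only.

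Levels are log2 signals, 1 per transcript row and array. The files carry no detection calls, so a signal was held against the negative control rows of its own array, whose 95th percentile lay between 8.09 and 8.55. A row counted as measured where both arrays of its brighter group exceeded that percentile. Where both arrays of the dimmer group fell below it, the difference is a lower bound and is given as "at least N-fold", the bright mean over the mean percentile of the dim group's arrays. Of 23188 tested rows, 6309 had a measured brighter group and 16861 did not; the rest stood at the ceiling of the scale, 19.9315, on all TAC and TAC-R arrays.

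A row was called changed at an adjusted p under 0.05 (limma, Benjamini-Hochberg over all 23188 rows). In all 100 rows were called, 0.431% of those tested, of which 52 were higher on the TAC-R arrays (0.224%) and 48 lower (0.207%), and 2547 had an unadjusted p under 0.05. In all 100 the values of the 2 groups did not overlap, which held for 40.5% of all rows tested. Of all named genes 20.1% had both TAC-R arrays above both TAC arrays and 21.1% both below. The list counts below are to be held against these shares. They are an unlike set, however: 4676 of the 15037 named genes had a measured brighter group, while in several lists nearly all members did. The shares among measured genes alone were not computed. Of the measured rows 71 were called, 1.13%, with 35 higher and 36 lower. Among 15037 named genes 77 were called (0.512%), 40 higher (0.266%) and 37 lower (0.246%). Of these 56 had a measured brighter group, 28 in each direction: 41 with a measured size and 15 with a lower bound. In 5 of the 41 (Cryl1, Iqcm, Carhsp1, Gabrb2 and Igf2) 1 of the 2 dimmer arrays lay below its background, so their sizes are less sure. The remaining 21 called genes, 12 higher and 9 lower, lay in or near the background in both groups, so they passed the test but their sizes were not measured. The median difference over all named genes was -6e-04. Among the measured rows 227 differed by at least 2-fold, 78 upward and 149 downward. A fit limited to the 6356 rows with a group above background called 257 (4.04%). Rows dim in 1 group could enter it only through a group where they were bright, so this filter is not independent of the difference.

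The calls depended on single arrays. Without TAC replicate 1, TAC replicate 2, TAC-R replicate 1 or TAC-R replicate 2, the counts of called rows were 9, 4, 16 and 14, and 8, 4, 13 and 10 of the 77 named genes passed. Leaving out either normal array gave 37 called rows, since it costs the estimate of the spread a degree of freedom. Nppb, Cryl1, Aif1l and Fgf7 passed in all 6 of these fits, and 45 of the 77 passed in none. No called difference changed sign in any of them. This was fixed in advance, because the 2 groups did not overlap in any called row.

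**Figure D1:**
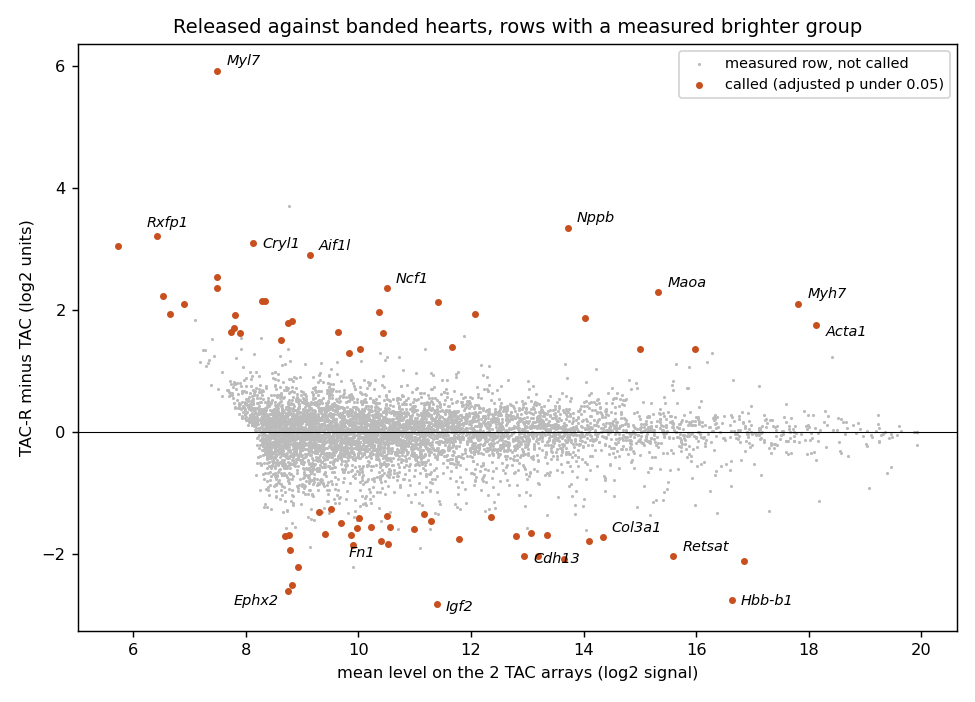
Each point is a row, placed by its mean log2 signal on the TAC arrays (x) and by its TAC-R minus TAC difference in log2 units (y). Shown are the 6309 rows with a measured brighter group and the few rows at the ceiling on all TAC and TAC-R arrays. Orange points are the 71 called rows. Myl7, Nppb and Rxfp1 stand highest among the called rows and Igf2 and Hbb-b1 lowest, and Myh7, Acta1, Maoa and Retsat are called at high signal.

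Natriuretic peptides and other load-responsive genes were the list with the highest median. Of 15 members with a row, 4 were called, all higher (Nppb, Myh7, Acta1 and Rcan1), 8 had both TAC-R arrays above both TAC arrays, against 20.1% of all named genes, and 2 (Corin and Nppc) had both below. The list's median difference was 0.81 log2 units. Nppb, the gene of the B-type natriuretic peptide that stretched muscle releases, measured 13.57 and 13.88 on the TAC arrays and 16.91 and 17.23 on the TAC-R arrays. It thus rose by 3.35 ± 0.24 log2 units, 10.2-fold (adjusted p = 0.00204 by limma). The gap between the groups was far wider than that within either. Nppa, the atrial natriuretic peptide gene, measured 8.60 and 8.92 on the TAC arrays and 13.69 and 11.26 on the TAC-R arrays, a difference of 3.71 ± 0.62 that did not pass (adjusted p = 0.0527). Both TAC-R arrays were above the TAC arrays, but TAC-R replicate 1 was well above replicate 2.

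Myh7, the slow (beta) myosin heavy chain, measured 17.87 and 17.76 on the TAC arrays and 19.93 and 19.91 on the TAC-R arrays and rose by at least 4.3-fold (adjusted p = 0.00663), TAC-R replicate 1 being at the ceiling. Its normal arrays, at 19.91 and 19.93, were also at or next to the ceiling. Acta1, skeletal alpha-actin, measured 17.98 and 18.29 on the TAC arrays and 19.85 and 19.93 on the TAC-R arrays and rose by at least 3.38-fold (adjusted p = 0.0157), with TAC-R replicate 2 at the ceiling. Rcan1, an inhibitor of the phosphatase calcineurin that is itself switched on by calcineurin, measured 16.00 and 15.96 on the TAC arrays and 17.29 and 17.41 on the TAC-R arrays and rose by 1.37 ± 0.20 (adjusted p = 0.0366). In each of these 3 genes both TAC-R arrays lay above both TAC arrays by more than the spread within either pair. Ankrd1, a stretch-responsive repressor in the I-band, measured 18.39 and 18.43 on the TAC arrays and 19.69 and 19.60 on the TAC-R arrays, a difference of 1.23 ± 0.21 just outside the threshold (adjusted p = 0.0515). Csrp3, the muscle LIM protein, had a difference of 1.15 (adjusted p = 0.0677). Corin, the protease that cuts the atrial peptide's precursor, went the other way at -1.24 (adjusted p = 0.119). Without TAC replicate 1 or without TAC-R replicate 1, the adjusted p by limma was 0.0308 and 0.03 for Nppb, 0.0694 and 0.0589 for Myh7, 0.173 and 0.0893 for Acta1 and 0.219 and 0.127 for Rcan1. The Nppa difference ran from 2.50 to 4.92 log2 units over all fits, those with 1 array left out among them.

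Among the thick and thin filament genes 3 of 18 were called, all higher: Myh7 and Acta1, and Myl7, the atrial regulatory light chain. Myl7 had the largest difference of all measured rows. It measured 7.48 and 7.51 on the TAC arrays and 14.30 and 12.54 on the TAC-R arrays, at least 38-fold higher (adjusted p = 0.00315; 0.0501 without TAC replicate 2), and its normal arrays read 8.40 and 8.43. Both TAC arrays lay below background and both TAC-R arrays far above it, with an SD of 1.25 log2 units between the 2 TAC-R arrays. The median over the whole list was 0.03. Of the members not called, Myl4 had a difference of 3.39 (adjusted p = 0.126) with its size not measured, Mybpc3 and Tnnc1 had both TAC-R arrays above both TAC arrays at 0.28 and 0.28, and Actc1, Myl3 and Tpm1 stood at the ceiling on every array.

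Because Myl7 is a gene of the atria, the atrial marker list was laid beside it. In whole-heart RNA, fewer cells of a type and less RNA per cell cannot be told apart. Of 12 atrial markers with a row, 1 was called (Myl7). Both TAC-R arrays lay above both TAC arrays in 4 (20.1% of all named genes did so) and below in 2 (21.1%). Those 4 were Myl7, Nppa, Myl4 and Sln, the last pair named after their values were seen. Myl4, the atrial essential light chain, read 4.11 and 3.75 on the TAC arrays and 8.72 and 5.91 on the TAC-R arrays, and Sln, sarcolipin, an inhibitor of the calcium pump most abundant in atria, read 3.78 and 3.60 on the TAC arrays and 6.10 and 4.07 on the TAC-R arrays. In all 4 TAC-R replicate 1 was above replicate 2. The atrial genes Bmp10 and Mybphl stayed at background on every array, the normal ones included, between 2.45 and 3.61, where no difference can be seen. They were among 8 of the 12 markers without a measured brighter group. Kcnj3, an atrial potassium channel subunit, read 12.31 and 11.98 on the TAC arrays and 11.79 and 12.02 on the TAC-R arrays, and Nr2f2, a transcription factor of atrial identity, 9.43 and 9.50 on the TAC arrays and 9.18 and 8.11 on the TAC-R arrays. The mean log2 level over the list was 5.99 and 5.89 on the TAC arrays and 7.48 and 6.58 on the TAC-R arrays. That of 11 ventricular markers was 16.89 and 16.84 against 16.99 and 16.86, but 3 of these stood at the ceiling on all TAC and TAC-R arrays and could not differ. The part of atrial tissue in the Myl7 and Nppa differences was not tested.

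**Figure D2:**
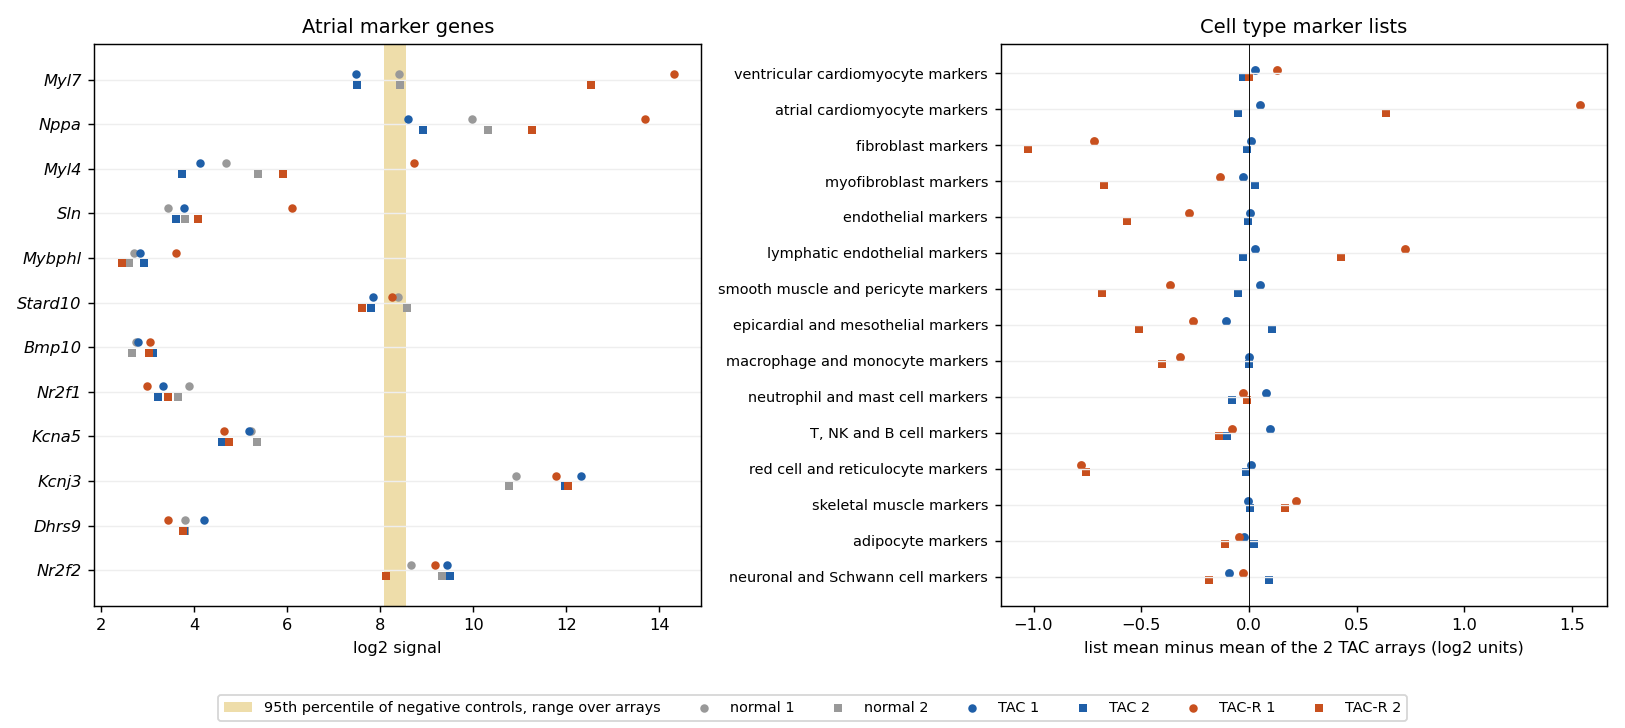
Left: log2 signal of the 12 atrial marker genes on each array (points: replicate 1, squares: replicate 2; grey normal, blue TAC, orange TAC-R), with the range of the arrays' 95th percentile of negative controls shaded. Right: for each cell type marker list, the mean log2 level on each TAC and TAC-R array minus the mean of the 2 TAC arrays. The atrial list is highest on TAC-R replicate 1, and the fibroblast, smooth muscle and red cell lists lie below the TAC arrays on both TAC-R arrays.

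Z-disc, I-band and M-band genes, which anchor and cross-link the filaments, leaned upward. Of 23 members 2 were called, both higher, 14 had both TAC-R arrays above both TAC arrays and 2 both below, and the median was 0.30. Ankrd23, an ankyrin repeat protein of the same family as Ankrd1, measured 5.74 and 5.72 on the TAC arrays and 9.03 and 8.54 on the TAC-R arrays and was at least 1.53-fold higher (adjusted p = 0.00416; 0.0723 without TAC replicate 2). Tcap, which caps titin at the Z-disc, measured 10.25 and 10.62 on the TAC arrays and 11.89 and 12.23 on the TAC-R arrays and rose by 1.62 ± 0.24 (adjusted p = 0.036; between 0.094 and 0.256 with any 1 array left out). Myot (myotilin) had a difference of 1.53 and Myom2, an M-band protein, of 1.30, and neither passed (adjusted p = 0.141 and 0.0505). Des (desmin) and Actn2 (alpha-actinin), structural proteins of this region, had differences of 0.12 and -0.03.

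Calcium handling and ion channel genes moved little as groups, with medians of 0.01 over 20 genes and 0.06 over 18. In each, 1 gene was called. Casq1, the skeletal form of calsequestrin, which stores calcium in the sarcoplasmic reticulum, measured 9.79 and 9.88 on the TAC arrays and 11.17 and 11.12 on the TAC-R arrays and rose by 1.31 ± 0.21 (adjusted p = 0.043). Its TAC-R arrays stood at the level of the normal arrays, 11.00 and 11.12. Ryr2, the release channel, differed by 0.49 (adjusted p = 0.468), and Atp2a2 and Pln, the calcium pump and its inhibitor, were at the ceiling on every array. Cacna1g, a T-type calcium channel, passed at background signals of 4.79 and 4.75 on the TAC arrays and 6.18 and 5.96 on the TAC-R arrays. The measured channel genes with the largest differences were Hcn2, a pacemaker channel (1.02), Kcnj2, which carries the inward rectifier current (-0.89), Scn4b (0.77) and Kcnip2 (0.73), none of which passed (adjusted p from 0.143 to 0.251). Neither Casq1 nor Cacna1g passed with any 1 array left out (adjusted p at least 0.102).

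**Figure D3:**
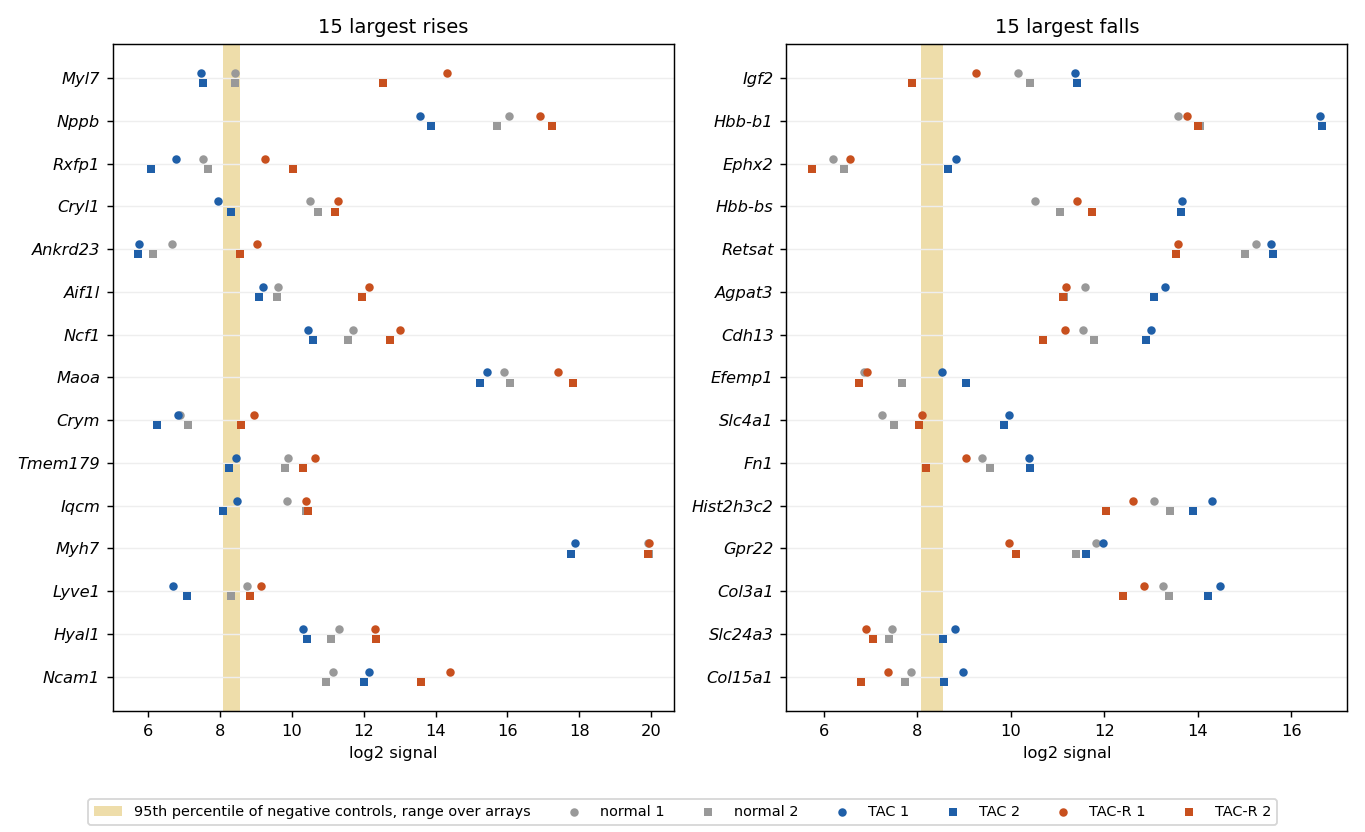
Log2 signal on each of the 6 arrays for the 15 largest rises (left) and the 15 largest falls (right) among called named genes with a measured brighter group; points are replicate 1, squares replicate 2, grey normal, blue TAC, orange TAC-R, and the shaded band is the range of the arrays' 95th percentile of negative controls. In none of these genes do the TAC and TAC-R values overlap, Myl7 having the widest gap between its TAC-R arrays among the rises and Igf2 among the falls.

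Several of the largest rises were single enzymes, receptors and regulators. Cryl1, a dehydrogenase of sugar metabolism, measured 7.95 and 8.30 on the TAC arrays and 11.27 and 11.20 on the TAC-R arrays and rose by 3.11 ± 0.23 (adjusted p = 0.00204), TAC replicate 1 being below background. Aif1l, an actin-binding protein related to allograft inflammatory factor, measured 9.20 and 9.08 on the TAC arrays and 12.13 and 11.95 on the TAC-R arrays and rose by 2.90 ± 0.21 (adjusted p = 0.00204), with its normal arrays at 9.62 and 9.60. Both genes passed whichever array was left out. Maoa, the outer mitochondrial membrane enzyme that breaks down noradrenaline and serotonin, measured 15.43 and 15.23 on the TAC arrays and 17.41 and 17.83 on the TAC-R arrays, a rise of 2.29 ± 0.23 at very high signal (adjusted p = 0.00796; 0.0981 without TAC replicate 2). Rxfp1, the receptor for relaxin, measured 6.76 and 6.09 on the TAC arrays and 9.25 and 10.04 on the TAC-R arrays and was at least 2.78-fold higher (adjusted p = 0.00718; 0.0875 without TAC replicate 2). Aplnr, the apelin receptor, went down: it measured 11.22 and 11.09 on the TAC arrays and 9.93 and 9.70 on the TAC-R arrays and fell by 1.34 ± 0.21 (adjusted p = 0.0439). These last 3 were the called members of a list of 22 vasoactive hormone genes, whose median was 0.01. Adrb1, the main beta-adrenergic receptor of heart muscle, had a difference of -0.94 (adjusted p = 0.192).

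Ncf1, the p47phox subunit of the phagocyte NADPH oxidase, measured 10.43 and 10.58 on the TAC arrays and 13.02 and 12.72 on the TAC-R arrays and rose by 2.36 ± 0.22 (adjusted p = 0.00582). Hyal1 and Hyal3, hyaluronidases whose genes overlap each other in the GRCr8 annotation, are uncertain as separate signals. Hyal1 measured 10.30 and 10.41 on the TAC arrays and 12.30 and 12.35 on the TAC-R arrays. Hyal3 measured 8.67 and 8.58 on the TAC arrays and 10.16 and 10.12 on the TAC-R arrays. They rose by 1.97 ± 0.21 and 1.52 ± 0.21 (adjusted p = 0.00951 and 0.0287), with tight pairs in both. Ncam1, a neural and muscle adhesion molecule, measured 12.13 and 12.00 on the TAC arrays and 14.40 and 13.60 on the TAC-R arrays and rose by 1.93 ± 0.28 (adjusted p = 0.0353). Here the normal arrays, at 11.13 and 10.95, lay below the TAC arrays. Ncam1 was the 1 called gene of 19 skeletal muscle markers. Chrna1, also on that list, measured 7.48 and 8.16 on the TAC arrays and 9.02 and 9.04 on the TAC-R arrays. Its difference of 1.21 did not pass (adjusted p = 0.132 by limma), and its normal arrays read 5.26 and 5.05. Of the list's fast fibre genes Myh4, Tnni2 and Actn3 stayed at background on every array. The list mean was 5.55 and 5.57 on the TAC arrays and 5.78 and 5.73 on the TAC-R arrays, with the brighter group not measured in 16 of the 19. Tmem179, a membrane protein, measured 8.44 and 8.24 on the TAC arrays and 10.65 and 10.32 on the TAC-R arrays and rose by 2.14 ± 0.22 (adjusted p = 0.00813). Iqcm measured 8.48 and 8.09 on the TAC arrays and 10.40 and 10.45 on the TAC-R arrays and rose by 2.14 ± 0.26 (adjusted p = 0.0151). Crym, a binding protein for thyroid hormone, measured 6.82 and 6.24 on the TAC arrays and 8.95 and 8.59 on the TAC-R arrays, at least 1.51-fold higher (adjusted p = 0.0151). Smaller rises were those of Ap1ar (an adaptor of vesicle transport), Reep6, Rhobtb1, Enah (an actin regulator at cell junctions) and Gadd45a (a growth arrest and DNA damage gene). They lay between 1.37 for Gadd45a and 1.78 for Ap1ar, that of Rhobtb1 being at least 2.55-fold, with adjusted p from 0.0157 to 0.0464. Of these 12 genes Ncf1 alone passed with a TAC or TAC-R array left out, and then only without TAC-R replicate 2 (adjusted p = 0.0426).

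A few genes switched on by glucocorticoids, the clock gene Per1 among them, were also higher. Of 18 glucocorticoid-responsive genes 3 were called, all higher, 8 had both TAC-R arrays above and 2 both below, and the median was 0.27. Per1, a repressor in the circadian clock, measured 9.02 and 8.62 on the TAC arrays and 11.03 and 10.25 on the TAC-R arrays and rose by 1.82 ± 0.29 (adjusted p = 0.0446). Zbtb16, a transcription factor, measured 7.82 and 7.75 on the TAC arrays and 9.27 and 9.73 on the TAC-R arrays and was at least 2.52-fold higher (adjusted p = 0.0248). Mt2A, a metal-binding metallothionein, measured 7.58 and 7.87 on the TAC arrays and 9.37 and 9.39 on the TAC-R arrays and was at least 2.31-fold higher (adjusted p = 0.023). The TAC-R arrays agreed closely in Mt2A and less so in Per1. None of the 3 passed with any 1 array left out (adjusted p at least 0.064). Sgk1 and Tsc22d3, also targets of the hormone receptor, had differences of -0.27 and 0.11, and Errfi1 of -0.72 (adjusted p = 0.259). Per1 was the only called gene of 15 clock genes, the others including Nr1d1 (-0.94) and Npas2 (-0.77). The hour of day at which hearts were taken is not given in the sources used.

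Retinoid, eicosanoid and lipid remodelling enzymes were called in both directions. Of 27 members 5 were called, 4 lower and 1 higher, and the median was -0.13. Retsat, retinol saturase, measured 15.57 and 15.61 on the TAC arrays and 13.57 and 13.54 on the TAC-R arrays, a fall of 2.03 ± 0.21 at high signal with almost no spread within either pair (adjusted p = 0.0081). Agpat3, an acyltransferase that builds phospholipids, measured 13.31 and 13.06 on the TAC arrays and 11.18 and 11.12 on the TAC-R arrays and fell by 2.03 ± 0.24 (adjusted p = 0.0148). Ephx2, soluble epoxide hydrolase, which removes vasodilating lipid epoxides, measured 8.84 and 8.67 on the TAC arrays and 6.57 and 5.74 on the TAC-R arrays and was at least 1.54-fold lower (adjusted p = 0.0107). Its TAC-R arrays and its normal arrays, at 6.21 and 6.43, were both in the background. Alox15, a lipoxygenase, and Sgms2, a sphingomyelin synthase, passed with both groups near background, Alox15 at 7.66 and 8.24 on the TAC arrays and 5.63 and 5.54 on the TAC-R arrays and Sgms2 at 3.43 and 3.34 on the TAC arrays and 6.20 and 6.89 on the TAC-R arrays. Aldh1a1, which makes retinoic acid, had a difference of 1.23 (adjusted p = 0.0515). Without TAC replicate 2 none of these 5 called genes passed (adjusted p = 0.0981 in each). Alox15 passed without TAC replicate 1 (0.0386), and Ephx2 (0.0338) and Sgms2 (0.0475) without TAC-R replicate 1.

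Fatty acid uptake and oxidation held Ephx2 and Retsat as its only called genes, 2 of 32, and 16 members had both TAC-R arrays below both TAC arrays against 21.1% of all named genes. The median was -0.10. Neither called gene is an enzyme of beta-oxidation itself. The next largest differences were those of Ucp3, a mitochondrial uncoupling protein (-1.22), Cpt1a (-0.98), Acaa2 (-0.96) and Acot2 (-0.87), and none passed (adjusted p from 0.0958 to 0.203). Lipe, hormone-sensitive lipase, measured 9.55 and 9.49 on the TAC arrays and 8.31 and 8.20 on the TAC-R arrays and fell by 1.26 ± 0.21 (adjusted p = 0.0476; between 0.116 and 0.276 with any 1 array left out). In the list of ketone body and branched-chain amino acid enzymes 0 of 18 were called, Bdh1 having the largest difference (-1.30, adjusted p = 0.0572). Glycolysis (0 of 26 called, median -0.02) and the respiratory chain (0 of 24, median 0.05) had no calls, the respiratory chain running from -0.29 for Cox6a1 to 0.25 for Cycs.

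**Figure D4:**
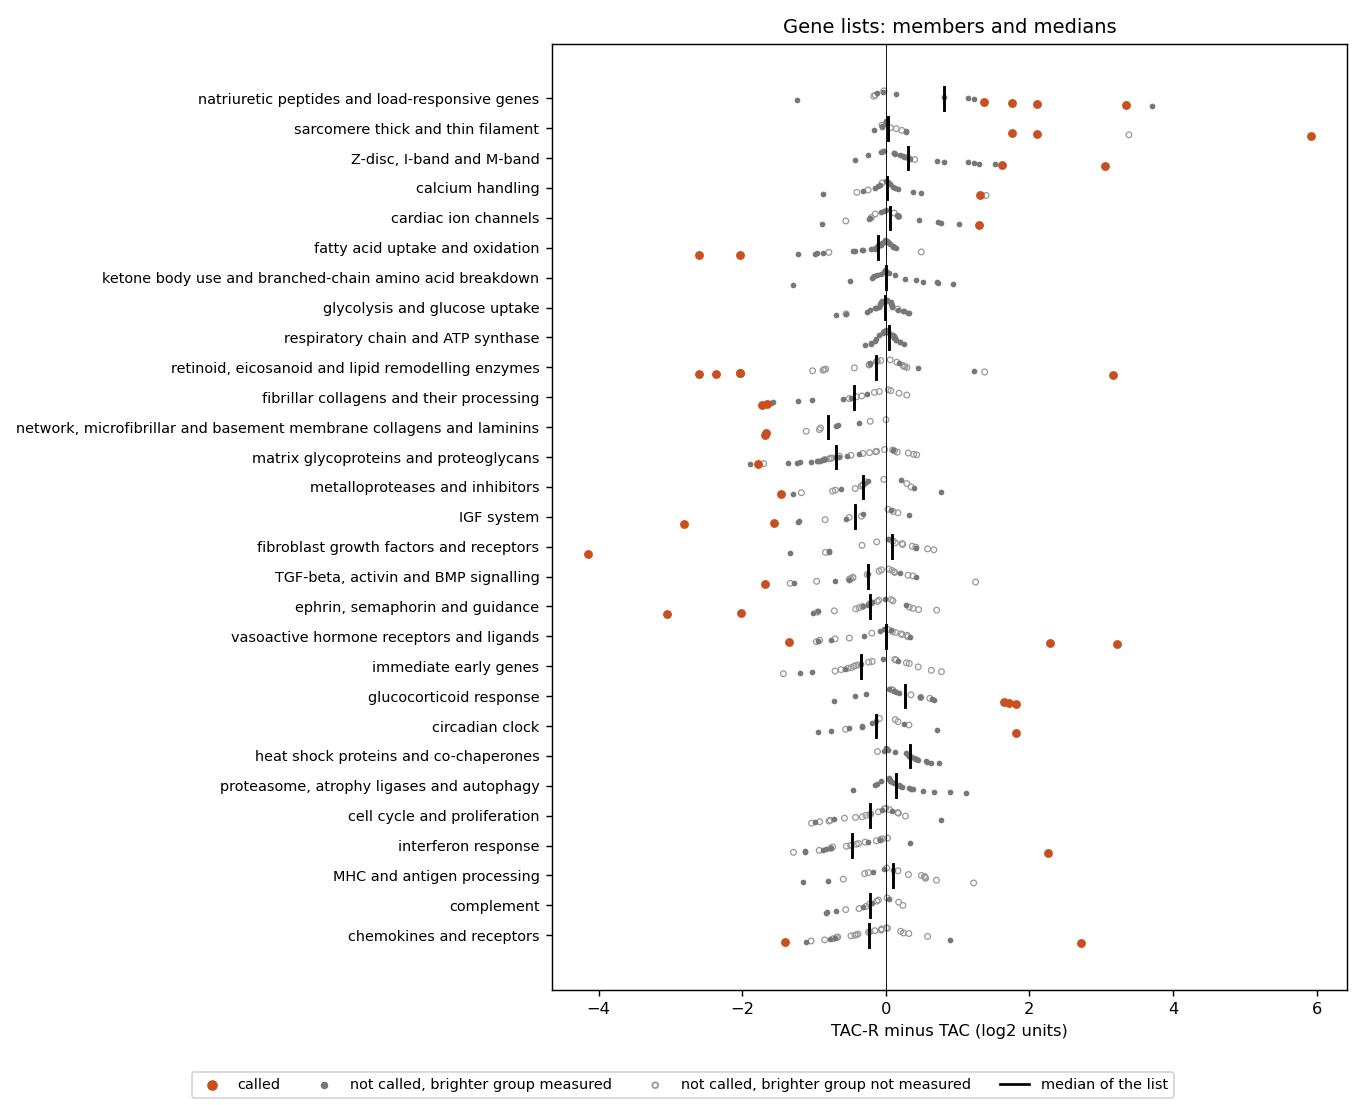
Each row is a gene list and each point a member, placed by its TAC-R minus TAC difference in log2 units; orange points are called genes, filled grey points have a measured brighter group, open points do not, and the bar is the list's median. The load-responsive list has the highest median, 0.81, and the network collagen and laminin list the lowest, -0.80.

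All called genes of the collagen, matrix glycoprotein and metalloprotease lists were lower on the TAC-R arrays. Among fibrillar collagens and their processing enzymes 2 of 18 were called, both lower, 12 had both TAC-R arrays below both TAC arrays and 1 both above, and the median was -0.45 (-1.23 over the 9 measured). Col3a1, the collagen III chain, measured 14.46 and 14.22 on the TAC arrays and 12.85 and 12.39 on the TAC-R arrays and fell by 1.72 ± 0.24 (adjusted p = 0.0269). Col1a2, a chain of collagen I, measured 13.00 and 13.13 on the TAC arrays and 11.72 and 11.10 on the TAC-R arrays and fell by 1.66 ± 0.27 (adjusted p = 0.0469). Its partner chain Col1a1 measured 11.29 and 11.24 on the TAC arrays and 10.05 and 9.29 on the TAC-R arrays, a difference of -1.59 ± 0.28 that did not pass (adjusted p = 0.0607). In all 3 the groups did not overlap, and TAC-R replicate 2 was the lowest array. Loxl2 and Loxl1, which cross-link collagen, and Bmp1, which trims its precursor, had differences of -1.56, -1.03 and -1.23 (adjusted p from 0.136 to 0.143).

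Among network and basement membrane collagens and laminins 2 of 10 were called, both lower, and 8 had both TAC-R arrays below both TAC arrays. Col6a2, of the microfibrillar collagen VI, measured 9.37 and 9.45 on the TAC arrays and 7.94 and 7.56 on the TAC-R arrays and was at least 2.43-fold lower (adjusted p = 0.0257). Col15a1, of the basement membrane zone of vessels and muscle, measured 8.98 and 8.57 on the TAC arrays and 7.37 and 6.80 on the TAC-R arrays, at least 1.56-fold lower (adjusted p = 0.0418). Of 35 matrix glycoproteins and proteoglycans 1 was called, Fn1, 24 had both TAC-R arrays below both TAC arrays and 2 both above, with a median of -0.69. Fn1, fibronectin, measured 10.39 and 10.40 on the TAC arrays and 9.05 and 8.18 on the TAC-R arrays and fell by 1.78 ± 0.29 (adjusted p = 0.0496). Prelp, Mfap4, Lum and Fbn1, matrix proteins that bind collagen or elastic fibres, had differences of -1.90, -1.36, -1.24 and -1.19, short of the threshold (adjusted p from 0.104 to 0.158). Postn, a matricellular protein of activated fibroblasts, read 6.71 and 6.13 on the TAC arrays and 5.37 and 4.07 on the TAC-R arrays, in the background in both groups. Adamts12, a matrix protease, measured 11.17 and 11.40 on the TAC arrays and 10.03 and 9.64 on the TAC-R arrays and fell by 1.45 ± 0.23 (adjusted p = 0.0436), the 1 called of 19 metalloproteases and inhibitors, among which Mmp2 had a difference of -1.29 (adjusted p = 0.07). Pxdn, a peroxidase that cross-links collagen IV, measured 11.06 and 10.92 on the TAC arrays and 9.58 and 9.24 on the TAC-R arrays and fell by 1.58 ± 0.22 (adjusted p = 0.0272). Efemp1, fibulin-3, measured 8.52 and 9.04 on the TAC arrays and 6.93 and 6.76 on the TAC-R arrays, at least 1.57-fold lower (adjusted p = 0.0446). None of the called matrix genes passed with any 1 array left out (adjusted p at least 0.0556, for Fn1 without TAC-R replicate 1).

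Markers of matrix-making and vessel cells are given beside these genes, most of them without a call. Of 15 fibroblast markers 2 were called, Col3a1 and Col1a2, and 13 had both TAC-R arrays below both TAC arrays; the mean level over the list was 10.22 and 10.20 on the TAC arrays and 9.49 and 9.18 on the TAC-R arrays. The list holds the 3 collagen chains. Pdgfra and Ddr2, receptors that mark fibroblasts, had differences of -0.78 and -1.03 (adjusted p = 0.262 and 0.178 by limma). Those of Pi16 and Dpep1 were 0.16 and -0.14 (adjusted p = 0.854 and 0.879). Of 11 myofibroblast markers 0 were called and 7 were lower on both TAC-R arrays, with means of 6.12 and 6.17 against 6.01 and 5.48. In 8 of the 11 the brighter group was not measured. Of 14 endothelial markers 0 were called and 10 were lower on both arrays, with means of 10.64 and 10.63 against 10.35 and 10.07. Of 16 smooth muscle and pericyte markers 0 were called and 12 were lower on both, with means of 10.05 and 9.95 against 9.64 and 9.32. In these 4 lists TAC-R replicate 2 had the lowest mean. The part of these cells in the matrix differences was not tested.

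In the lists of IGF, FGF and TGF-beta genes all calls were downward. Igf2, insulin-like growth factor 2, measured 11.36 and 11.42 on the TAC arrays and 9.26 and 7.89 on the TAC-R arrays and fell by 2.82 ± 0.39 (adjusted p = 0.0269), TAC-R replicate 2 being below background. Its TAC arrays agreed closely and its TAC-R arrays did not; without TAC-R replicate 1 the adjusted p was 0.0207 and without TAC replicate 2 it was 0.209. Igf1 measured 10.08 and 10.36 on the TAC arrays and 8.85 and 8.48 on the TAC-R arrays and fell by 1.56 ± 0.25 (adjusted p = 0.0438; between 0.094 and 0.279 with any 1 array left out). Of 14 genes of the IGF system these 2 were called and 8 were lower on both TAC-R arrays, with a median of -0.42. The binding proteins Igfbp7 and Igfbp5 had differences of -1.22 and -1.21 (adjusted p = 0.177 and 0.138), and the receptor Igf1r of 0.32. Fgf7, keratinocyte growth factor, had the lowest adjusted p of all rows, 0.000994. It read 8.40 and 7.94 on the TAC arrays and 4.00 and 4.06 on the TAC-R arrays and 5.99 and 6.19 on the normal arrays, so only 1 TAC array stood above background and the size of the fall was not measured. Fgf7 passed whichever array was left out. It was the 1 called of 18 fibroblast growth factor genes. Fgf1, a factor abundant in heart muscle, missed the threshold at -1.33 ± 0.22 from a high level of 16.49 and 16.24 on the TAC arrays (adjusted p = 0.0503). Fstl1, a secreted follistatin-like protein, measured 13.36 and 13.32 on the TAC arrays and 11.88 and 11.44 on the TAC-R arrays and fell by 1.68 ± 0.24 (adjusted p = 0.0286), the 1 called of 23 genes of TGF-beta and BMP signalling.

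Several receptors and adhesion molecules of the cell surface fell as well. Cdh13, T-cadherin, the adiponectin-binding cadherin of vessels, measured 13.01 and 12.89 on the TAC arrays and 11.17 and 10.69 on the TAC-R arrays and fell by 2.02 ± 0.24, 4.05-fold (adjusted p = 0.0151). Epha3, an ephrin receptor, passed at 6.14 and 6.59 on the TAC arrays and 3.20 and 3.43 on the TAC-R arrays, all in the background, and still passed without any array other than TAC replicate 2 (adjusted p = 0.0525). These were the 2 called of 25 guidance genes. F2r, the thrombin receptor, measured 9.85 and 10.10 on the TAC arrays and 8.44 and 8.38 on the TAC-R arrays and fell by 1.57 ± 0.22 (adjusted p = 0.0269). Ackr3, a scavenging receptor for Cxcl12, measured 10.00 and 10.03 on the TAC arrays and 8.70 and 8.54 on the TAC-R arrays and fell by 1.40 ± 0.23 (adjusted p = 0.0486), and its ligand Cxcl12 had a difference of -1.11 (adjusted p = 0.198). Gpr22, an orphan receptor of heart and brain, measured 11.96 and 11.61 on the TAC arrays and 9.97 and 10.11 on the TAC-R arrays and fell by 1.75 ± 0.24 (adjusted p = 0.0272). Gabrb2, a subunit of the GABA-A receptor, fell by 1.68 and Carhsp1, an RNA-binding protein, by 1.48 (adjusted p = 0.0368 and 0.0446). Slc24a3, a sodium-calcium-potassium exchanger, measured 8.82 and 8.56 on the TAC arrays and 6.91 and 7.05 on the TAC-R arrays and was at least 1.47-fold lower (adjusted p = 0.0168). Steap4, a metalloreductase, was at least 2.26-fold lower (adjusted p = 0.0446). Hist2h3c2, a histone H3 gene whose probes can bind near-identical copies, measured 14.30 and 13.90 on the TAC arrays and 12.60 and 12.04 on the TAC-R arrays and fell by 1.78 ± 0.27 (adjusted p = 0.0396). With any 1 of the TAC or TAC-R arrays left out, none of these genes but Epha3 passed (adjusted p at least 0.0556).

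Beta-globin and a red cell membrane gene fell. Of 17 red cell and reticulocyte markers 3 were called, all lower, 10 had both TAC-R arrays below both TAC arrays and 0 both above. The mean over the list was 8.69 and 8.66 on the TAC arrays and 7.90 and 7.92 on the TAC-R arrays, with the brighter group not measured in 9 of the 17. Hbb-b1, a beta-globin chain, measured 16.62 and 16.65 on the TAC arrays and 13.78 and 14.00 on the TAC-R arrays and fell by 2.75 ± 0.24, 6.73-fold (adjusted p = 0.00416). Its TAC-R arrays lay at the level of the normal arrays, 13.57 and 14.05. Hbb-bs, a closely related chain whose probes can share transcripts with it, measured 13.65 and 13.64 on the TAC arrays and 11.42 and 11.73 on the TAC-R arrays and fell by 2.07 ± 0.25 (adjusted p = 0.0151). Slc4a1, which exchanges chloride for bicarbonate in red cells, measured 9.96 and 9.85 on the TAC arrays and 8.10 and 8.03 on the TAC-R arrays and was at least 3.42-fold lower (adjusted p = 0.014). Alas2, which starts haem synthesis in erythroid cells, had a difference of -1.32 ± 0.22 (adjusted p = 0.0538), and Hba-a1 reached the ceiling on the TAC arrays. Rhag, Klf1 and Gata1, genes of red cell precursors, were at background on all arrays. Without TAC replicate 2 none of the 3 called genes passed (adjusted p from 0.0723 to 0.134), and without TAC-R replicate 2 Hbb-b1 did (0.0426). The part of blood in the hearts in these differences was not tested.

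Markers of immune and lymphatic cells gave few calls. Lyve1, a hyaluronan receptor of lymphatic vessels and resident macrophages, measured 6.70 and 7.09 on the TAC arrays and 9.15 and 8.83 on the TAC-R arrays and was at least 1.76-fold higher (adjusted p = 0.0157). Ccl21, the chemokine of lymphatic endothelium, passed at 4.32 and 4.24 on the TAC arrays and 7.27 and 6.73 on the TAC-R arrays, under background in both groups. These were the 2 called of 8 lymphatic markers, and Prox1, the transcription factor that defines the lineage, differed by -0.30 (adjusted p = 0.699). The list mean was 5.99 and 5.94 on the TAC arrays and 6.69 and 6.39 on the TAC-R arrays, with the brighter group not measured in 6 of the 8. Of 21 macrophage and monocyte markers 0 were called and 14 were lower on both TAC-R arrays, with means of 7.14 and 7.14 against 6.82 and 6.74. In 15 of the 21 the brighter group was not measured, so these figures hold many background signals. In T, NK and B cells (22 markers), neutrophils and mast cells (17) and neurons and Schwann cells (15) 0 were called. Of 12 adipocyte markers 1 was called, Lipe, and of 27 chemokine genes 2, Ccl21 and Ackr3. Of 23 interferon-induced genes 1 was called, Ifit1, which passed upward at background signals of 2.53 and 3.08 on the TAC arrays and 5.36 and 4.79 on the TAC-R arrays, while 15 had both TAC-R arrays lower and the median was -0.48. Usp18 and Ifit2 stood at -1.12 and -1.13, short of the threshold (adjusted p = 0.0916 and 0.278). MHC and complement lists had 0 called of 17 and of 15; Cd74, the invariant chain, had the largest measured difference of them at -1.15 (adjusted p = 0.0877). Lyve1, Ccl21 and Ifit1 did not pass without a TAC or TAC-R array (adjusted p at least 0.0642).

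Stress and turnover genes were uncalled. Of 20 heat shock proteins and co-chaperones 0 were called, although 15 had both TAC-R arrays above both TAC arrays and 0 both below, with a median of 0.33. Dnajb4 measured 12.10 and 12.11 on the TAC arrays and 12.70 and 12.99 on the TAC-R arrays (0.74, adjusted p = 0.241), and the small heat shock proteins Hspb2, Hspb1 and Hspb3 had differences of 0.63, 0.57 and 0.56. Sqstm1, the autophagy receptor p62, had a difference of 1.12 (adjusted p = 0.0789), the largest of 20 proteasome and autophagy genes, with 0 called. Of 23 immediate early genes 0 were called, 9 being lower and 5 higher on both TAC-R arrays, against 21.1% and 20.1% of all named genes. Among these Dusp1, a phosphatase of MAP kinases, measured 13.73 and 13.95 on the TAC arrays and 12.78 and 12.51 on the TAC-R arrays (-1.20, adjusted p = 0.0737), and Egr1 11.01 and 10.75 on the TAC arrays and 9.98 and 9.73 on the TAC-R arrays (-1.02, adjusted p = 0.155) against 13.62 and 14.00 on the normal arrays. Of 22 cell cycle genes 0 were called, Ccnd1 (cyclin D1) having a difference of -0.98 and Cdkn1a, the inhibitor p21, of 0.77 (adjusted p = 0.151 and 0.233).

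The called genes whose size was not measured are Tceal7, Cdhr5, Akip1, Dusp15, Ampd1, Rnd1, Steap2 and Chchd5 upward and Tbx18, Gpc3, Fndc1, Siae, Rasa3 and Trim50 downward, besides those given above. Tbx18, a transcription factor of the epicardium and pericytes, read 6.73 and 6.66 on the TAC arrays and 5.02 and 4.88 on the TAC-R arrays. It was the 1 called of 9 epicardial markers, none of which had a measured brighter group. Of 23 called rows with no gene symbol 15 had a measured brighter group, 7 of them higher. The row TC0700001401.rn.2 measured 11.38 and 11.44 on the TAC arrays and 13.57 and 13.51 on the TAC-R arrays (adjusted p = 0.00663 by limma). Which transcripts these rows stand for was not analysed here.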

How the data were processed

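Clariom S Rat arrays were used to measure whole-heart RNA. Per the labels, the authors used Expression Console to summarise core exons by robust multi-array averaging (RMA); the deposited log2 signals were used as they are. The sources used here name no versions, background settings or array batches. The extraction field of the labels names cultured fibroblasts, all other fields whole heart; heart muscle genes stood at the top of the scale on all arrays. RMA makes the distributions of arrays alike, so a shift of all genes together cannot be seen. The medians of the arrays lay between 5.31 and 5.39. Across tested rows the TAC pair correlated at 0.993, the TAC-R pair at 0.991 and TAC with TAC-R arrays at 0.988 to 0.990.

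The table held 24834 rows, of which 1646 were control rows and were left out of the tests. A platform annotation gave 1 symbol to 15049 rows and none to 8139; updating through a RefSeq gene table changed 0 symbols. A gene with several rows is given by its brightest. Of the table's tested rows 460 had values identical to another row. Differences were fitted with limma 3.58.1 in R 4.3.3 (lmFit, eBayes, 1 mean per group, 6 arrays, 3 residual degrees of freedom). Errors after ± are its standard errors, and fold changes are 2 to the difference. With 2 arrays against 2, an exact permutation test cannot go below p = 0.333, so calls rest on the spread pooled over genes. The number of arrays limits the precision.

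Every called gene with a symbol could be named. The 15 largest rises and 15 largest falls with a measured brighter group, the called members of each list with up to 4 others of the largest measured difference, and a short fixed set of genes (Nppa, Nppb, Myh7, Acta1, Ankrd1, Myl7, Col1a1, Col3a1, Fn1, Postn, Igf1, Igf2, Fgf7) were given with values. Other list members named were chosen after their values were seen. The genes, the 44 lists and the tests were chosen with earlier results of these data known, so counts over lists are descriptions. The same script was tested on simulated arrays. Alternatives changed the moderation, filters, scaling, arrays and background level.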

Additional observations from a re-analysis of the deposited data

How the results depend on the processing

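The 100 called rows (71 with a measured brighter group) became 344 (280) with an intensity trend in the moderation, 187 (144) without rows below the median mean, 257 (257) without rows that had no group above background, 44 (34) with control rows kept and 37 (28) with only the TAC and TAC-R arrays in the fit. Within 1.5 times of the reported counts were robust moderation (128 and 92), rows at the ceiling left out (143 and 103), 1 row per identical set (142 and 103), a second quantile normalization (102 and 74) and centred medians (144 and 105). With the 99th percentile as background 21 measured rows were called. Leaving out 1 array gave 4 to 37 called rows and 4 to 28 measured ones. The replicate number as a block gave 47 (37). Same-numbered arrays did not deviate together (correlations of -0.0127, 0.0117 and -0.0093). With 2 arrays a group this cannot show whether the numbers pair them. The share of higher calls was 52 of 100, and 141 of 344 with the trend, 102 of 257 above background, 29 of 44 with controls. The median difference over all rows was 0.0046 after the second quantile normalization and 0.0298 with centred medians, against 0.0045 in the main fit. No difference of a called gene or of the fixed set reversed in any of the 17 settings. Most settings could not reverse one, because the groups of these genes did not overlap. The 95th percentile of the negative controls, a signal near 8, hid the sizes of most dim genes, and 2 arrays a group limit every call.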

Other observations

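The fit limited to rows with a group above background named further genes, none of which passed the test over all rows. Among those higher on the TAC-R arrays were Lmod2, which elongates thin filaments (+1.11 log2 units), Nrap (+0.86), Synm, an intermediate filament protein (+0.96), Klhl41 (+0.93), Alpk3, a kinase of the M-band (+0.96), and Asb2 (+0.85). Hopx, a regulator of heart muscle growth, measured 9.94 and 9.75 on the TAC arrays and 11.08 and 11.24 on the TAC-R arrays. Penk, proenkephalin, measured 12.43 and 12.20 on the TAC arrays and 13.64 and 13.17 on the TAC-R arrays. These genes were picked after their values were seen, in a setting with fewer rows to adjust over, and are given as values only.

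Among the genes lower on the TAC-R arrays in that fit was Mgp, an inhibitor of calcification, at 13.95 and 14.13 on the TAC arrays and 12.84 and 12.05 on the TAC-R arrays. Lgals5, a galectin, read 9.80 and 10.00 on the TAC arrays and 7.59 and 7.81 on the TAC-R arrays, under background in the released hearts. Myl9, the smooth muscle light chain, read 10.06 and 10.73 on the TAC arrays and 9.22 and 8.65 on the TAC-R arrays. Apoe, apolipoprotein E, read 12.34 and 12.28 on the TAC arrays and 11.21 and 10.89 on the TAC-R arrays. Cav1, which builds the caveolae of endothelium, measured 13.69 and 13.79 on the TAC arrays and 13.00 and 12.72 on the TAC-R arrays. In Mgp, Myl9 and Cav1 TAC-R replicate 2 was the lowest array, as it was in the means of the fibroblast, endothelial and smooth muscle markers.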
